A study of Mus musculus with 6 samples.

Results

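The glycosyltransferases of mucin-type O-glycans and of complex N-glycans were followed in murine oviductal epithelial cells kept in long-term culture. Members were taken by gene symbol from 9 enzyme families: the Galnt, Gcnt, B3gnt, B4galt, Fut, St3gal, St6gal (with St6galnac), St8sia and Mgat genes. The rule found 76 genes among the 22800 symbols of the tables, and no member symbol was repeated. MOEHIGH were cells of passages 90, 103 and 113 (3 libraries), and MOELOW were cells of passages 8, 9 and 10 of the same culture (3 libraries). Both groups came from outbred CD1 mice, with no gene introduced, and grew in the same serum medium with epithelial growth factor, insulin, transferrin and β-estradiol. Oviducts of several 8-week-old females had been pooled to give 1 line, so the libraries are passages of 1 line. The p-values set the group difference against the spread between passages within the groups, and do not cover how separate lines would vary. RNA was depleted of ribosomal RNA and sequenced. The deposited unit is FPKM, in which fragments are scaled to transcript length and to a measure of library size. Where 3 values of a group follow each other, they stand in the order of the passages just given. Means carry the SD over n = 3 libraries.

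Glycosyltransferases sit mainly in the Golgi and add 1 sugar at a time to proteins and lipids, so the set of enzymes that a cell makes shapes the glycans on its surface. Mucin-type chains start when a Galnt enzyme places N-acetylgalactosamine on serine or threonine, and Gcnt and B3gnt enzymes then branch and extend them. N-glycans arrive in the Golgi preassembled, and the Mgat enzymes build their antennae. B4galt enzymes add galactose, and fucosyltransferases and sialyltransferases add the outermost sugars. In the oviduct, secretory cells release heavily glycosylated proteins into the lumen, and altered sialylation and branching are well known in carcinoma cells.

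The glycosyltransferase genes held a small part of the RNA in both groups. Their FPKM summed to 496, 483 and 492 in MOEHIGH, against 637, 591 and 588 in MOELOW, so all MOEHIGH sums were below all MOELOW sums. That was 0.0644% to 0.0824% of all FPKM in MOEHIGH and 0.0872% to 0.0942% in MOELOW. Over the whole tables, FPKM summed to between 597161 and 770438 per library, and the fragment numbers behind them are unknown. Each library was taken from its sample record, because the headings inside the tables name another passage or none, and read by those headings the libraries would fall into other groups. By the records Acta2, a smooth muscle actin, was at most 6.91 FPKM in MOEHIGH and at least 4017 FPKM in MOELOW, so the records parted the libraries without overlap. Of 4 oviductal secretory markers, Pax8 was at 41.0 to 48.8 FPKM in MOEHIGH and 44.4 to 54.4 FPKM in MOELOW. Wt1 was at 27.7 to 33.4 FPKM and 50.4 to 50.8 FPKM, and Msln at 124 to 213 FPKM and 15.7 to 27.1 FPKM. Ovgp1 was at 0.703 to 1.01 FPKM and 0.761 to 1.09 FPKM. Epithelial markers were present in part. Of Krt8, Krt18 and Krt19, keratins of simple epithelium, the lowest value was 22.6 FPKM in MOEHIGH and 39.6 FPKM in MOELOW. Krt7, another such keratin, was at 1.36 to 2.79 FPKM in MOEHIGH and 0.317 to 1.17 FPKM in MOELOW. The other 4 of the 8 epithelial markers were under 1 FPKM in every library: the adhesion genes Epcam and Cdh1 were at or below 0.0404 FPKM in MOEHIGH and 0.0821 FPKM in MOELOW, Cldn4 at 0 and at most 0.156 FPKM, and Muc1 at most 0.433 FPKM and 0.386 FPKM. The summed level of 5 smooth muscle markers was 9.33 to 17.9 FPKM in MOEHIGH and 7687 to 11031 FPKM in MOELOW, and that of 7 fibroblast and stromal markers 22.4 to 32.7 FPKM and 591 to 977 FPKM. Of these lists, 2 and 4 markers were under 1 FPKM in all MOEHIGH libraries, and 1 and 2 in all MOELOW libraries. The defining marker Myh11 of smooth muscle was at most 0.0207 FPKM in MOEHIGH and 0.591 FPKM in MOELOW, and Lum of stroma was listed at 0 in MOEHIGH and in 2 MOELOW libraries. The part of these cell types in the changes of the glycosyltransferases was not tested. In bulk RNA, fewer cells of a type and less RNA per cell cannot be told apart.

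Of the 76 genes, 42 reached a mean of 0.5 FPKM over the 6 libraries and were tested. In MOEHIGH, 9 of them were higher and 23 were lower (limma on log2(FPKM + 1), adjusted p under 0.05 over all 11621 tested genes), and 10 did not pass the test. Over all tested genes, 24.3% were higher, 32.1% were lower and 56.4% were called in either direction. The median log2 fold change was -0.42 over the 42 tested members and -0.05 over all tested genes. The groups did not overlap in 33 of the 42 members, where 64.0% of all tested genes did not overlap. Because 8 of the 42 (2 higher, 6 lower) reached the minimum only through 1 group, those had to differ. They were B3gnt3 and Gcnt3 among the higher members, and B3gnt5, Galntl4, Gcnt4, St6galnac2, St6galnac3 and St8sia2 among the lower. Among the other 34 members, 7 were higher and 17 lower. The shares of all tested genes, here and below, include genes that reached the minimum through 1 group, so they are no like comparison for these 34. When the test was set against a 2-fold change, 5 members were higher (Gcnt3, St3gal6, B3gnt3, Galnt10 and St3gal4) and 7 lower (St6galnac2, St8sia2, Gcnt4, St3gal5, Galnt11, St3gal1 and B4galt5). By that call 2.61% of all tested genes were higher and 7.80% were lower. Of these 12 members, Gcnt3, B3gnt3, St6galnac2, St8sia2 and Gcnt4 reached the minimum only through 1 group, and among the 34 members that reached it in both groups 3 were higher and 4 lower. Calls in both directions occurred within 6 of the 9 families. In the B3gnt and Gcnt families the only higher members, B3gnt3 and Gcnt3, were among those that reached the minimum through 1 group. All log2 fold changes below are MOEHIGH minus MOELOW on the log2(FPKM + 1) scale, on which changes of weakly expressed genes appear smaller than they are, and each adjusted p is from limma.

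**Figure D1:**
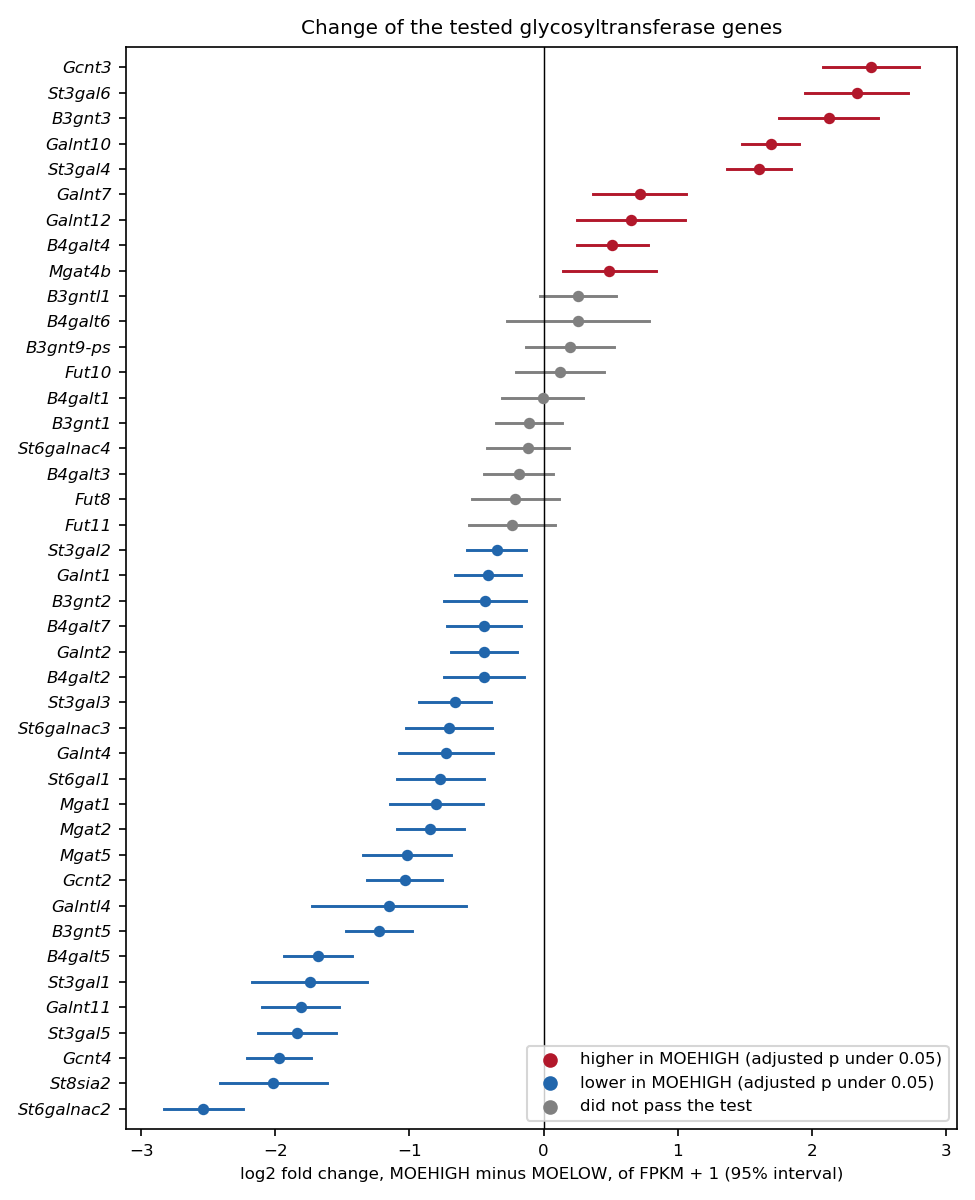
Log2 fold change, MOEHIGH minus MOELOW, of FPKM + 1 for the 42 tested glycosyltransferase genes, with the 95% interval from limma. Points above zero in red (9 genes) and below zero in blue (23 genes) passed an adjusted p of 0.05, and the 10 grey genes did not. Gcnt3 stands at the top with 2.44 and St6galnac2 at the bottom with -2.54.

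The order of levels was partly rearranged. FPKM is per length of transcript, so levels of different genes can be set side by side. In MOEHIGH the highest means were those of Mgat4b (48.4 ± 9.30 FPKM), Mgat2 (35.8 ± 2.77), Galnt2 (35.0 ± 3.66), St3gal4 (34.0 ± 1.73) and Galnt1 (33.2 ± 3.62). The means of Mgat2, Galnt2, St3gal4 and Galnt1 lay closer to each other than their SDs. In MOELOW the highest were Mgat2 (64.9 ± 5.01 FPKM), Galnt2 (47.8 ± 0.840), Galnt1 (44.4 ± 0.464), St3gal5 (39.3 ± 5.61) and Fut11 (35.4 ± 3.87). Among the 76 genes St3gal4 held place 4 in MOEHIGH and place 20 in MOELOW, and Galnt10 places 7 and 25. Conversely, St3gal5 held place 16 in MOEHIGH and place 4 in MOELOW, and B4galt5 places 15 and 6.

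**Figure D2:**
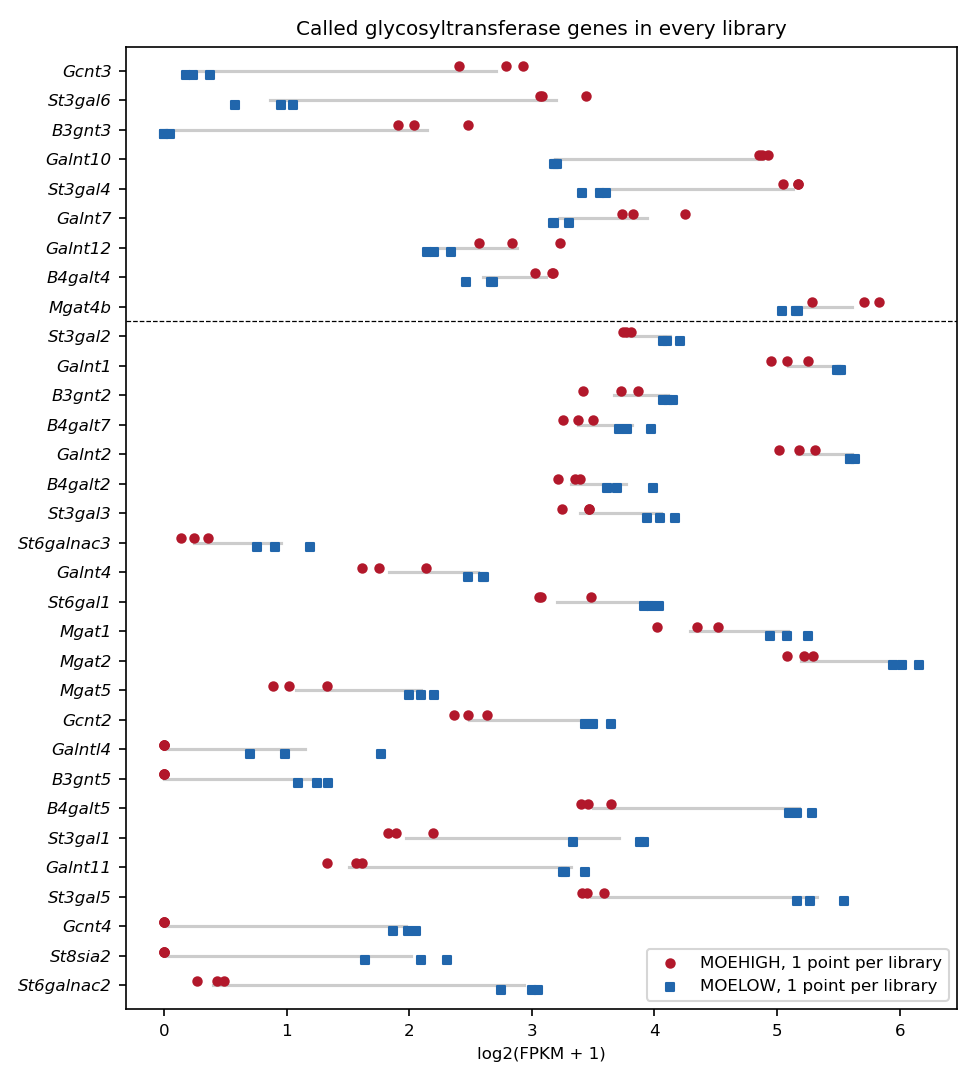
Level of the 32 called genes in every library, as log2(FPKM + 1). Red circles are the 3 MOEHIGH libraries, blue squares the 3 MOELOW libraries and grey lines join the group means; the dashed line parts the 9 higher from the 23 lower genes. For no called gene did the points of the groups overlap.

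Among the enzymes that start O-glycans, genes changed in both directions. Summed over 18 Galnt genes, FPKM were 122, 119 and 125 in MOEHIGH and 131, 127 and 127 in MOELOW. All 8 tested Galnt genes were called, 3 higher and 5 lower, beside 56.4% called of all tested genes. Of the 5 lower genes, Galntl4 reached the minimum for testing only through MOELOW, so it had to differ. Galnt1 and Galnt2, which start O-glycans in most tissues, both fell. Galnt2 was at 38.6, 35.1 and 31.3 FPKM in MOEHIGH, against 48.8, 47.2 and 47.4 FPKM in MOELOW (log2 fold change -0.44, standard error 0.11, adjusted p = 0.0079). Galnt1 was at 32.8, 29.9 and 37.1 FPKM in MOEHIGH, against 44.9, 43.9 and 44.5 FPKM in MOELOW (-0.41, standard error 0.11, adjusted p = 0.011). Falls of both were modest, and both genes stayed the most abundant of the family in either group.

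Galnt10 and Galnt7 encode enzymes known for acting on peptides that already carry a first sugar. Galnt10 was at 29.4, 28.4 and 27.8 FPKM in MOEHIGH, against 8.04, 8.23 and 8.13 FPKM in MOELOW. Its MOEHIGH mean was 3.51-fold the MOELOW mean, and values within each group lay close together (log2 fold change 1.69, standard error 0.09, adjusted p = 3.6e-06). Galnt7 was at 12.3, 13.2 and 18.0 FPKM in MOEHIGH, against 8.02, 8.87 and 8.06 FPKM in MOELOW (0.72, standard error 0.15, adjusted p = 0.0042). Passage 113 stood above the other MOEHIGH libraries for Galnt7. Galnt12 was at 4.93, 8.39 and 6.15 FPKM in MOEHIGH and 3.42, 4.07 and 3.60 FPKM in MOELOW (0.65, standard error 0.17, adjusted p = 0.014), and the call was lost without the library of passage 8 (0.61).

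Galnt11, whose enzyme is known to modify Notch1 and receptors of the low-density lipoprotein family, went the other way. It was at 1.97, 2.07 and 1.52 FPKM in MOEHIGH, against 9.80, 8.53 and 8.63 FPKM in MOELOW, a mean 4.86-fold higher in MOELOW (log2 fold change -1.81, standard error 0.12, adjusted p = 1.2e-05). Galnt4, another enzyme that follows earlier ones on a peptide, was at 2.36, 2.07 and 3.39 FPKM in MOEHIGH, against 5.07, 4.58 and 5.09 FPKM in MOELOW (-0.73, standard error 0.15, adjusted p = 0.0042). Galntl4, now named Galnt18, was listed at 0 in the 3 MOEHIGH libraries and at 2.42, 0.981 and 0.622 FPKM in MOELOW (adjusted p = 0.0052). The MOELOW mean was 1.34 FPKM, and leaving out passage 8 lowered it to 0.802 FPKM, where Galntl4 fell under the minimum and was not tested. As a share of the summed FPKM of 10 Galnt genes, Galnt10 took 24.0%, 23.8% and 22.2% in MOEHIGH and 6.13%, 6.48% and 6.44% in MOELOW. Galnt1 and Galnt2 each took between 25.0% and 31.5% in MOEHIGH and between 34.2% and 37.5% in MOELOW.

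The 250 bases before the outer start of 4 genes are printed, each 5′ to 3′ on the strand of the gene, because these genes carry the changes within families. They are Galnt10 and St3gal4, which rose, and Galnt11 and B4galt5, which fell. Sequences are RefSeq promoters of GRCm38.p6, the assembly of mm10, and capitals mark each GC box (GGGCGG on either strand, overlaps included).
Galnt10, chr11:57645192-57645441, plus strand: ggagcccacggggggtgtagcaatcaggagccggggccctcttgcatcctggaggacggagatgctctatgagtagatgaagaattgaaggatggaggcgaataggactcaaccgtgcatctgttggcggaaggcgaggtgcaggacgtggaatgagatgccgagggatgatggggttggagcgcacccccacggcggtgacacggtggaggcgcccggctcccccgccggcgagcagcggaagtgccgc
Galnt11, chr5:25222622-25222871, plus strand: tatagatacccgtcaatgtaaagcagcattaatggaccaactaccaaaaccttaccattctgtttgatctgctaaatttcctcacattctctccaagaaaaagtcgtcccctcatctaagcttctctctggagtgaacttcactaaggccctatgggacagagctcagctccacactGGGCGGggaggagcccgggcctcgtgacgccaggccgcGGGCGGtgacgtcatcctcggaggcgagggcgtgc
St3gal4, chr9:35116865-35117114, minus strand: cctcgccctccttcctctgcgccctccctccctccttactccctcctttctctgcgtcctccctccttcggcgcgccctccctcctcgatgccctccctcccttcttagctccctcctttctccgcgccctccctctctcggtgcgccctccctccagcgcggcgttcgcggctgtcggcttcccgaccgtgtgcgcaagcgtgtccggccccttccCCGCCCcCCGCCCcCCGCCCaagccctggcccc
B4galt5, chr2:167349179-167349428, minus strand: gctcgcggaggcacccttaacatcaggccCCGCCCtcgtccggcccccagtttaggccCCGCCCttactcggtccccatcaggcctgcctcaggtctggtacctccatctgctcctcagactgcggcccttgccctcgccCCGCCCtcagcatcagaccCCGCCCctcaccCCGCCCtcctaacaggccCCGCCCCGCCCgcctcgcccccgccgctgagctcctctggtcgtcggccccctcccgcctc
Galnt10 held 0 GC boxes, Galnt11 held 2, St3gal4 held 3 and B4galt5 held 7, so the count did not sort the genes by direction. In all, 22 called members had 31 such windows in the RefSeq table. The GC box lay in 5 of 7 windows of higher members and 15 of 24 windows of lower members, against 32.7% of all 32851 windows. Among members that did not pass the test, windows of some also held it, such as B4galt1 and B4galt3. Those of others, such as B3gnt1 and Fut11, did not. The CCAAT box (CCAAT, either strand) lay in 2 of 7 and 9 of 24, against 33.9% of all windows. The TATA box (TATAAA, either strand) lay in 0 of 7 and 0 of 24 (12.4% of all). The AP-1 motif (TGANTCA, either strand) lay in 0 of 7 and 2 of 24 (6.75%), and the E2 box (CACCTG, either strand) in 1 of 7 and 1 of 24 (17.2%). Median GC content was 64.4% in windows of higher members, 57.8% in those of lower members and 52.4% over all windows. A match describes letters only and is no evidence of binding.

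Among the 3 tested genes of branching enzymes of the Gcnt family, 1 rose and 2 fell, beside 56.4% called of all tested genes. Gcnt3 reached the minimum for testing only through MOEHIGH and Gcnt4 only through MOELOW, so both had to differ. Gcnt3 encodes the mucin-type enzyme that makes core 2 and core 4 branches in secretory epithelia. It lies on chromosome 9 from 70031495 to 70039890 (GRCm38.p6), and was at 6.62, 4.29 and 5.90 FPKM in MOEHIGH, against 0.178, 0.295 and 0.130 FPKM in MOELOW. The MOEHIGH mean was 27.8-fold the MOELOW mean (log2 fold change 2.44, standard error 0.15, adjusted p = 8.4e-06). Gcnt4, another enzyme of core 2 branches, was listed at 0 in the 3 MOEHIGH libraries and was at 3.16, 2.98 and 2.66 FPKM in MOELOW (-1.97, standard error 0.10, adjusted p = 3.0e-06).

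Gcnt2, which makes the I branch of polylactosamine chains, was at 5.20, 4.14 and 4.57 FPKM in MOEHIGH, against 11.5, 10.3 and 9.83 FPKM in MOELOW (log2 fold change -1.04, standard error 0.12, adjusted p = 0.00020). Gcnt1, the core 2 enzyme of leukocytes and many other cells, stayed under the minimum for testing. It was listed at 0.229, 0.132 and 0.619 FPKM in MOEHIGH and at 0 in the 3 MOELOW libraries. Of the summed FPKM of Gcnt1 to Gcnt4, Gcnt3 held 54.9%, 50.1% and 53.2% in MOEHIGH and 1.20%, 2.18% and 1.03% in MOELOW. Gcnt2 held 43.2%, 48.4% and 41.2% in MOEHIGH and 77.5%, 75.8% and 77.9% in MOELOW, and Gcnt4 held 0% in MOEHIGH and 21.1% to 22.0% in MOELOW.

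**Figure D3:**
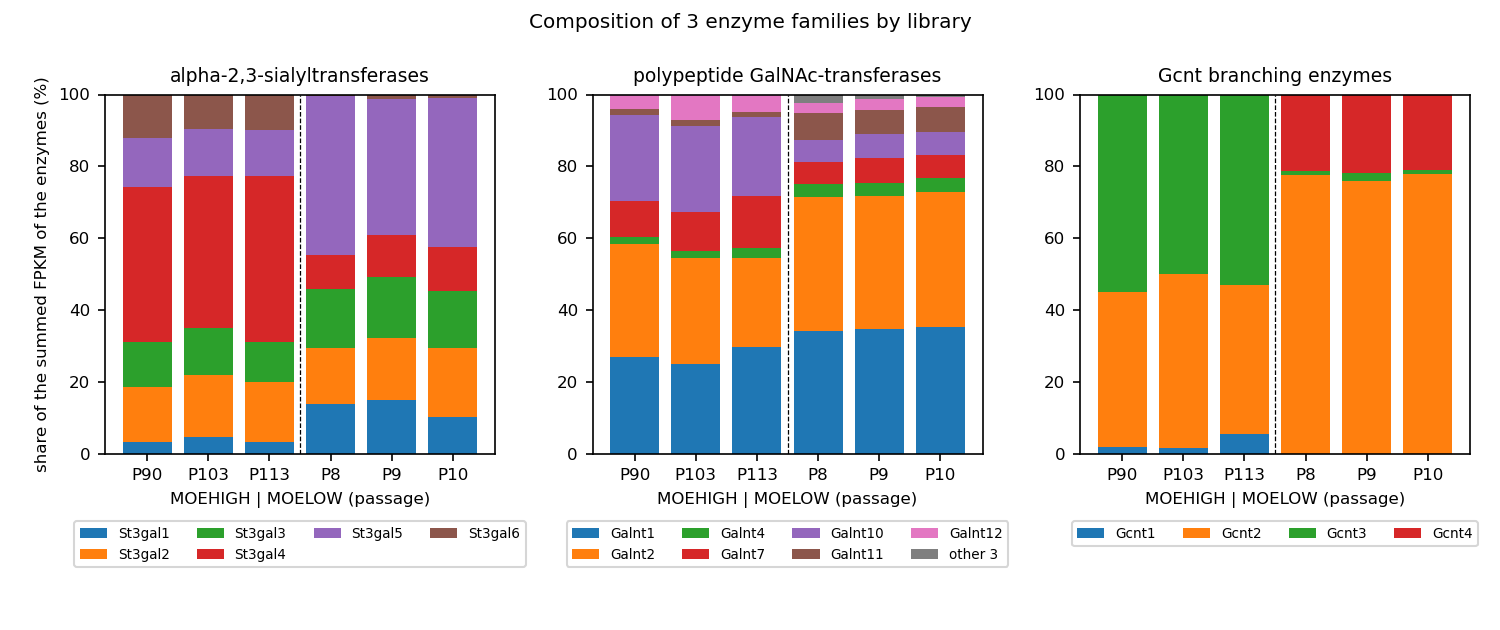
Share of each enzyme in the summed FPKM of 6 St3gal, 10 Galnt and 4 Gcnt genes, 1 bar per library, with MOEHIGH (passages 90, 103 and 113) left of MOELOW (passages 8, 9 and 10). St3gal4 took 42.2% to 46.2% of the St3gal bars in MOEHIGH and 9.37% to 12.3% in MOELOW, and Gcnt3 took 50.1% to 54.9% of the Gcnt bars in MOEHIGH and 1.03% to 2.18% in MOELOW.

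Extension by B3gnt enzymes changed in single genes. B3gnt3 encodes the enzyme that extends core 1 chains. It was at 3.11, 4.59 and 2.75 FPKM in MOEHIGH, against 0.0364, 0 and 0 FPKM in MOELOW (log2 fold change 2.13, standard error 0.16, adjusted p = 1.9e-05). B3gnt3 reached the minimum for testing only through MOEHIGH, so it had to differ. B3gnt2, the main polylactosamine synthase, was at 9.71, 12.3 and 13.6 FPKM in MOEHIGH, against 16.7, 16.2 and 15.8 FPKM in MOELOW (-0.44, standard error 0.13, adjusted p = 0.023). That call was lost without the library of passage 90 (-0.31), 8 (-0.42), 9 (-0.44) or 10 (-0.46), and with libraries scaled to equal totals (-0.49). B3gnt6, the core 3 enzyme of the gut, was listed at 0 in MOEHIGH and at 0, 0.0324 and 0.0986 FPKM in MOELOW.

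B3gnt1, listed by RefSeq as B4gat1 and active in the glycan of dystroglycan, was at 14.8, 15.8 and 14.5 FPKM in MOEHIGH, against 18.0, 15.1 and 15.8 FPKM in MOELOW. Its difference did not pass the test (log2 fold change -0.11, 95% interval -0.35 to 0.14, adjusted p = 0.42). B3gntl1 had values of 3.71 to 4.89 FPKM in MOEHIGH and 3.34 to 3.64 FPKM in MOELOW, and was the only tested member whose groups did not overlap without passing the test (adjusted p = 0.11). B3gnt9-ps was at 1.80 to 2.33 FPKM in MOEHIGH and 1.41 to 2.18 FPKM in MOELOW (adjusted p = 0.27).

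Of the 8 genes for N-glycan antennae 4 were tested, and of these 3 fell and 1 rose, beside 56.4% called of all tested genes. Mgat1 opens the way from high-mannose to hybrid and complex N-glycans, and Mgat2 to complex ones. Mgat2 was at 36.3, 32.7 and 38.2 FPKM in MOEHIGH, against 70.4, 63.6 and 60.7 FPKM in MOELOW, a mean 1.82-fold higher in MOELOW (log2 fold change -0.84, standard error 0.11, adjusted p = 0.00033). Mgat1 was at 21.9, 19.3 and 15.2 FPKM in MOEHIGH, against 37.1, 32.8 and 29.8 FPKM in MOELOW (-0.80, standard error 0.15, adjusted p = 0.0026). Mgat5, which adds the β1,6 branch long studied in tumor invasion, was at 0.857, 1.02 and 1.51 FPKM in MOEHIGH, against 3.27, 2.99 and 3.61 FPKM in MOELOW (-1.02, standard error 0.14, adjusted p = 0.00053).

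Mgat4b, which adds a branch on the other arm of the N-glycan, was the 1 that rose among the 4 tested. It was at 55.9, 51.4 and 38.0 FPKM in MOEHIGH, against 31.9, 34.5 and 34.9 FPKM in MOELOW (log2 fold change 0.49, standard error 0.15, adjusted p = 0.023). Passage 113 lay close to the MOELOW values. The call was lost without the library of passage 90, 103, 8, 9 or 10 (0.38, 0.44, 0.45, 0.51 and 0.51) and with libraries scaled to equal upper quartiles (0.38). Of the summed FPKM of Mgat4a, Mgat4b and Mgat5, Mgat5 held 1.51%, 1.95% and 3.80% in MOEHIGH and 9.19%, 7.87% and 9.27% in MOELOW. Mgat3, which adds the bisecting N-acetylglucosamine, reached 0.271, 1.05 and 0.365 FPKM in MOEHIGH and 0.255, 0.209 and 0.230 FPKM in MOELOW, with passage 103 apart from the rest, and was not tested.

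None of the 3 tested fucosyltransferase genes, of 9 in all, passed the test, beside 56.4% called of all tested genes. Fut8, the enzyme of core fucose, was at 19.7, 19.3 and 22.8 FPKM in MOEHIGH, against 28.2, 24.0 and 20.1 FPKM in MOELOW, and the groups overlapped (log2 fold change -0.21, 95% interval -0.53 to 0.11, adjusted p = 0.24). Fut11 was the most abundant fucosyltransferase gene, at 25.7, 29.7 and 34.9 FPKM in MOEHIGH, against 31.7, 35.0 and 39.4 FPKM in MOELOW (-0.23, 95% interval -0.55 to 0.09, adjusted p = 0.19). Without the library of passage 113 Fut11 was called lower (-0.34). Fut10 was at 2.34 to 3.23 FPKM in MOEHIGH and 2.17 to 3.02 FPKM in MOELOW (adjusted p = 0.49). The fucosyltransferases of blood group H and Lewis antigens, Fut1, Fut2, Fut4, Fut7 and Fut9, were all at or below 0.218 FPKM in every library.

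Of 7 galactosyltransferase genes, 1 was higher and 3 were lower. That is 57.1% called, close to the 56.4% of all tested genes. B4galt1, the main enzyme of N-acetyllactosamine, was at 11.3, 13.9 and 13.6 FPKM in MOEHIGH, against 14.8, 11.4 and 12.9 FPKM in MOELOW (log2 fold change -0.01, 95% interval -0.31 to 0.30, adjusted p = 0.97), and its sign turned under some settings. B4galt4, known for acting on sulfated chains, was at 7.96, 7.13 and 8.00 FPKM in MOEHIGH, against 5.36, 5.41 and 4.52 FPKM in MOELOW (0.51, standard error 0.11, adjusted p = 0.0057). B4galt2 was at 9.52, 8.28 and 9.19 FPKM in MOEHIGH, against 14.9, 11.3 and 11.9 FPKM in MOELOW (-0.45, standard error 0.13, adjusted p = 0.019). B4galt7, which builds the linker of proteoglycans, was at 10.3, 9.41 and 8.56 FPKM in MOEHIGH, against 14.7, 12.7 and 12.1 FPKM in MOELOW (-0.44, standard error 0.12, adjusted p = 0.013). Both calls were lost without the library of passage 8 (-0.33 for B4galt2 and -0.37 for B4galt7), and that of B4galt2 also without passage 103 (-0.39). B4galt3 was at 6.96 to 8.47 FPKM in MOEHIGH and 8.46 to 9.34 FPKM in MOELOW, and did not pass the test (adjusted p = 0.19).

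All 6 St3gal genes, whose enzymes cap galactose with α2,3-linked sialic acid, were called, 2 higher and 4 lower. Over all tested genes, 56.4% were called. St3gal4 and St3gal6, which cap N-acetyllactosamine and take part in sialyl Lewis antigens, both rose. St3gal4 lies on chromosome 9 from 35046576 to 35116864 and was at 35.0, 32.0 and 35.1 FPKM in MOEHIGH, against 9.64, 10.7 and 11.2 FPKM in MOELOW. Its MOEHIGH mean was 3.23-fold the MOELOW mean (log2 fold change 1.61, standard error 0.10, adjusted p = 8.5e-06). St3gal6 was at 9.88, 7.37 and 7.50 FPKM in MOEHIGH, against 0.497, 1.08 and 0.942 FPKM in MOELOW, a 9.83-fold higher mean in MOEHIGH (2.33, standard error 0.17, adjusted p = 1.6e-05). Of the summed FPKM of the 6 St3gal genes, St3gal4 held 43.2%, 42.2% and 46.2% in MOEHIGH and 9.37%, 11.7% and 12.3% in MOELOW. St3gal6 held 12.2%, 9.70% and 9.88% in MOEHIGH and 0.483%, 1.18% and 1.04% in MOELOW.

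St3gal1, which caps core 1 O-glycans, fell. It was at 2.71, 3.58 and 2.55 FPKM in MOEHIGH, against 14.1, 13.8 and 9.12 FPKM in MOELOW, with passage 10 the lowest of MOELOW (log2 fold change -1.74, standard error 0.18, adjusted p = 0.00013). St3gal2, with the same acceptor and gangliosides, was at 12.4, 13.0 and 12.7 FPKM in MOEHIGH, against 16.2, 15.8 and 17.5 FPKM in MOELOW (-0.35, standard error 0.10, adjusted p = 0.015), a call lost without the library of passage 10 (-0.31). St3gal3, which also caps lactosamine chains, was at 10.0, 10.1 and 8.47 FPKM in MOEHIGH, against 16.9, 15.5 and 14.4 FPKM in MOELOW (-0.66, standard error 0.12, adjusted p = 0.0018).

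Of 7 α2,6-sialyltransferase genes 4 were tested, and of these 3 fell and 0 rose. Over all tested genes, 56.4% were called. St6galnac2 and St6galnac3 reached the minimum only through MOELOW and so had to differ, which leaves St6gal1 as the call free of this limit. St6gal1, the enzyme of α2,6-sialic acid on N-glycans, was at 7.44, 7.31 and 10.2 FPKM in MOEHIGH, against 14.7, 14.1 and 15.4 FPKM in MOELOW (log2 fold change -0.77, standard error 0.14, adjusted p = 0.0021). St6galnac2, which sialylates the first sugar of O-glycans, had the lowest log2 fold change among the 42 tested members on the log2(FPKM + 1) scale. It lies on chromosome 11 from 116676703 to 116695782 and was at 0.204, 0.403 and 0.351 FPKM in MOEHIGH, against 7.29, 6.99 and 5.74 FPKM in MOELOW, a mean 20.9-fold higher in MOELOW (-2.54, standard error 0.13, adjusted p = 2.4e-06). St6galnac2 reached the minimum for testing only through MOELOW. Its rank beside genes listed at 0 in MOEHIGH, such as Gcnt4 and St8sia2, depends on the pseudocount. St6galnac3 was at 0.101 to 0.285 FPKM in MOEHIGH and 0.697 to 1.28 FPKM in MOELOW (-0.70, adjusted p = 0.0032). Without passage 10 it fell under the minimum and was not tested. St6galnac4, which completes disialylated core 1, was at 8.80, 10.9 and 8.05 FPKM in MOEHIGH, against 10.9, 9.70 and 9.46 FPKM in MOELOW, and the groups overlapped (-0.11, 95% interval -0.42 to 0.19, adjusted p = 0.49). St6galnac1, the sialyl-Tn synthase, was listed at 0 in all 6 libraries.

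Polysialic acid is built by St8sia2 and St8sia4, chiefly on the neural cell adhesion molecule. St8sia2 was listed at 0 in the 3 MOEHIGH libraries and was at 3.27, 2.11 and 3.96 FPKM in MOELOW (log2 fold change -2.01, standard error 0.17, adjusted p = 4.0e-05). It reached the minimum for testing only through MOELOW, so it had to differ. St8sia4 was listed at 0 in all 6 libraries. In MOELOW St8sia2 held nearly all FPKM of its family, which summed to 0.794, 0.823 and 0.918 in MOEHIGH and 3.32, 2.17 and 4.10 in MOELOW.

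Several members act on glycolipids rather than proteins, and of these B4galt5, St3gal5 and B3gnt5 fell. B3gnt5 reached the minimum for testing only through MOELOW, so it had to differ. Lactosylceramide, the common precursor of gangliosides, is made by B4galt5 and B4galt6. B4galt5 was at 11.5, 9.59 and 9.98 FPKM in MOEHIGH, against 38.0, 34.8 and 33.3 FPKM in MOELOW, a mean 3.41-fold higher in MOELOW (log2 fold change -1.68, standard error 0.11, adjusted p = 9.6e-06). B4galt6 was at 5.69, 7.56 and 11.8 FPKM in MOEHIGH, against 5.77, 6.37 and 7.62 FPKM in MOELOW, and did not pass the test (0.25, 95% interval -0.28 to 0.79, adjusted p = 0.37). B4galt5 thereby held 66.9%, 55.9% and 45.9% of the FPKM of the pair in MOEHIGH and 86.8%, 84.5% and 81.4% in MOELOW.

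St3gal5, the GM3 synthase that opens the ganglioside series, was at 11.0, 9.91 and 9.65 FPKM in MOEHIGH, against 45.6, 34.8 and 37.5 FPKM in MOELOW, a mean 3.86-fold higher in MOELOW (log2 fold change -1.84, standard error 0.13, adjusted p = 1.2e-05). B3gnt5, which opens the lacto series, was listed at 0 in the 3 MOEHIGH libraries and at 1.53, 1.14 and 1.38 FPKM in MOELOW (-1.23, standard error 0.11, adjusted p = 4.5e-05). St8sia1, the GD3 synthase, stood against this direction at 0.794, 0.809 and 0.918 FPKM in MOEHIGH and 0.0291, 0.0456 and 0.0952 FPKM in MOELOW. Its mean lay under the minimum, so it was not part of the test, and without that filter it was called higher (0.80, adjusted p = 4.2e-05).

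The remaining members were at low levels. Of 34 members that were not tested, 13 were listed at 0 in all 6 libraries and 21 had a value above 0 in at least 1, the highest being 1.05 FPKM for Mgat3 in passage 103. Without the filter on low values 7 of them were called, Gcnt1 and St8sia1 as higher and B3gnt8, Fut4, Galnt3, Mgat4a and Mgat4c as lower. Galnt3, a mucin-starting enzyme of secretory epithelia, was at 0.0418, 0 and 0 FPKM in MOEHIGH and 0.347, 0.360 and 0.198 FPKM in MOELOW. Mgat4a, the paralog of Mgat4b, was at 0.0911, 0.112 and 0.172 FPKM in MOEHIGH and 0.462, 0.423 and 0.434 FPKM in MOELOW. Over all 76 members, 7 were listed at 0 in every MOEHIGH library and above 0 in every MOELOW library (B3gnt5, B3gnt8, Fut4, Galntl4, Gcnt4, Mgat4c and St8sia2), and 1, Gcnt1, the other way round.

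Genes that supply or surround these enzymes were counted over lists of known function, as a description with no test of the lists. Of 16 tested genes for other cores and caps, 3 were higher and 8 lower. C1galt1, which makes core 1, was at 4.23, 4.37 and 8.64 FPKM in MOEHIGH, against 9.43, 9.96 and 11.5 FPKM in MOELOW (log2 fold change -0.80, adjusted p = 0.020). Its call was lost without the library of passage 90 (-0.65), 103 (-0.67), 9 (-0.82) or 10 (-0.73), and with libraries scaled to equal totals (-0.85). B4galnt1, the next enzyme after GM3 in the ganglioside series, was at 18.0, 17.4 and 13.3 FPKM in MOEHIGH, against 28.0, 29.1 and 27.8 FPKM in MOELOW (-0.78, adjusted p = 0.0013). Of 33 genes of the N-glycan precursor and the oligosaccharyltransferase, 1 was higher and 16 were lower, with Dad1 at 95.6, 88.9 and 73.0 FPKM in MOEHIGH against 246, 249 and 238 FPKM in MOELOW (-1.51, adjusted p = 2.9e-05). Of 17 genes of N-glycan trimming, 2 were higher and 10 lower. Medians of the log2 fold change were -0.23, -0.30 and -0.74 for these lists, beside -0.05 over all tested genes. Called in either direction were 68.8%, 51.5% and 70.6% of their tested genes, beside 56.4% of all tested genes.

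Of 32 tested genes of nucleotide sugar synthesis and Golgi transport, which supply the sugar donors, 5 were higher and 13 lower (median log2 fold change -0.18). That is 56.2% called, close to the 56.4% of all tested genes. Uap1l1, a paralog of the UDP-N-acetylglucosamine pyrophosphorylase, was at 120, 136 and 69.0 FPKM in MOEHIGH, against 14.6, 22.6 and 15.1 FPKM in MOELOW (2.54, adjusted p = 0.00013). Slc35a2, the Golgi carrier of UDP-galactose, was at 5.51, 5.24 and 6.11 FPKM in MOEHIGH, against 12.2, 12.6 and 12.1 FPKM in MOELOW (-1.01, adjusted p = 0.00010). Of 14 genes of glycan breakdown, 0 were higher and 12 lower (85.7% called, median -0.76). The lysosomal aspartylglucosaminidase gene Aga led them at 6.75, 4.68 and 4.72 FPKM in MOEHIGH and 26.2, 24.3 and 20.9 FPKM in MOELOW. Of 21 genes of Golgi scaffold and pH, 1 was higher and 8 lower (median -0.33). That is 42.9% called, below the share of all tested genes.

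Carriers and readers of the glycans were few. Of 20 mucins and mucin-like carriers 17 were found by symbol and only 6 were tested, with 1 higher and 2 lower. That is 50% called, beside 56.4% of all tested genes. Podxl, a sialylated mucin-like protein of apical membranes, was at 21.3, 17.9 and 22.3 FPKM in MOEHIGH, against 2.71, 3.89 and 5.14 FPKM in MOELOW (log2 fold change 2.15, adjusted p = 4.9e-05). Cd164, a sialomucin, was at 51.0, 57.2 and 75.7 FPKM in MOEHIGH, against 204, 199 and 198 FPKM in MOELOW (-1.71, adjusted p = 4.4e-05). Among 5 tested lectin genes, 3 were higher, 0 lower and 2 did not pass the test. That is 60.0% called, close to the 56.4% of all tested genes. Lgals3, the galectin that binds lactosamine chains, was at 389, 289 and 198 FPKM in MOEHIGH, against 46.6, 61.1 and 33.9 FPKM in MOELOW (2.59, adjusted p = 0.00015), and Lgals2 was at 9.30, 17.8 and 19.3 FPKM in MOEHIGH and listed at 0 in MOELOW.

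**Figure D4:**
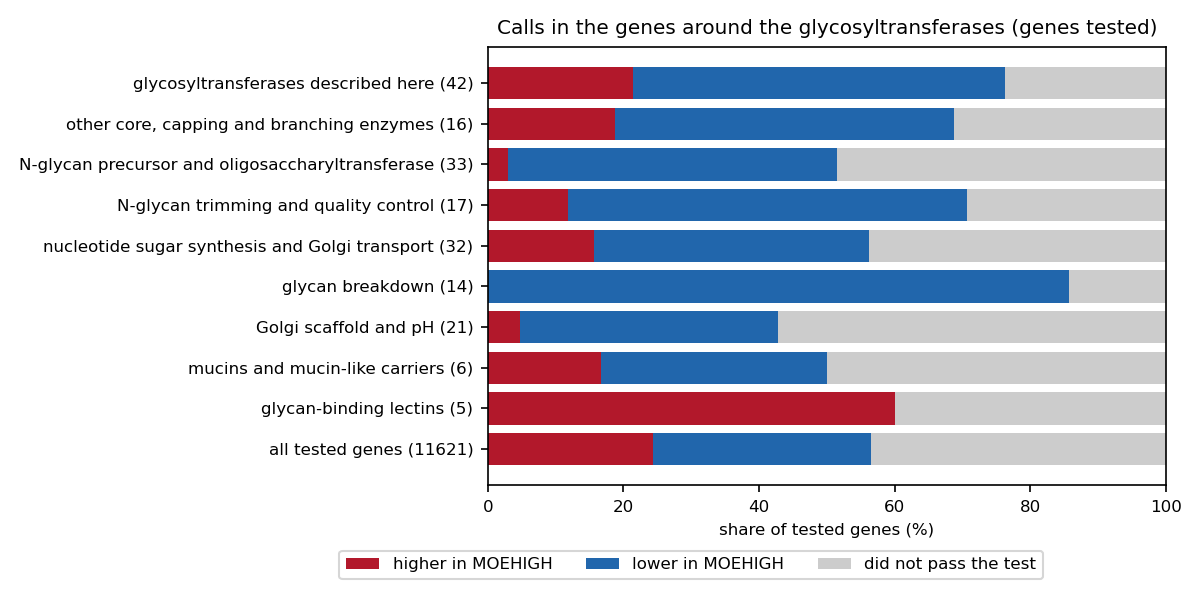
Share of tested genes that were higher, lower or did not pass the test in MOEHIGH against MOELOW, for the glycosyltransferases, 8 lists around them and all tested genes, with the number tested in parentheses. Among glycosyltransferases 9 of 42 were higher and 23 lower, and in glycan breakdown 0 of 14 were higher and 12 lower, beside 24.3% and 32.1% of all tested genes.

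The tested members lay on 18 chromosomes. Chromosome 19 had a median log2 fold change of 0.70 over 369 tested genes and held 1 tested member, B3gnt1, which did not pass the test. Chromosome 8, with a median of 0.29 over 569 genes, held 6 members, of which B3gnt3 and Galnt7 were higher and Galnt2 and St3gal2 lower. Exons of some members overlap those of other genes in GENCODE M21. For St3gal6, 36.3% of the exonic bases lie opposite Dcbld2, which averaged 17.9 FPKM in MOEHIGH and 27.1 FPKM in MOELOW. For St6galnac2, 10.0% lie opposite 1810032O08Rik, at a mean of 21.6 FPKM in MOEHIGH and 12.1 FPKM in MOELOW. The libraries kept the strand, but whether strand was used in the estimates is not given in the sources used here, so values of these overlapping genes are uncertain. On the same strand, other protein-coding gene models share 93.7% of the exonic bases of Galnt2 (Gm20388), 85.3% of B3gnt1 (AC124502.3) and 73.6% of B3gnt2 (Gm28048), and these models could take part of their fragments.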

How the data were processed

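RNA of 3 MOEHIGH and 3 MOELOW passages was sequenced by the authors from strand-specific libraries depleted of ribosomal RNA. Per the labels, reads were aligned to mm10 with TopHat2 2.0.8b and expression was estimated with Cuffdiff 2.1.1, and the authors deposited 1 table of FPKM per library with 23141 rows. The headings over the values name another passage or none, so each library was taken from its sample record. For 236 repeated symbols the row with the highest mean was kept.

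FPKM are not counts, so limma 3.58.1 (R 4.3.3) with a variance trend was fitted on log2(FPKM + 1), keeping genes whose average reached 0.5 FPKM, with Benjamini-Hochberg adjustment over all of them. Depth in fragments is unknown, and a value of 0 is given only as listed. Tests were tried on simulated data. The members and lists were chosen with earlier results of these data known. All values were to be given for members that passed the test with a group mean reaching 2 FPKM, or did not pass it with a mean reaching 10 FPKM. Some members outside these limits were also given with all values, such as B3gnt5, Galntl4, B4galt6, St6galnac4 and untested genes such as Gcnt1 and Mgat3. Other members, and up to 3 called genes per list and direction whose mean reached 5 FPKM, could be named. Same-numbered replicates of the groups did not deviate together (correlations -0.02, -0.15 and 0.12), so they were not paired. Sums and shares used Python 3.11.15, numpy 2.4.6 and pandas 2.3.3, and positions and promoters came from RefSeq.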

Additional observations from a re-analysis of the deposited data

How the results depend on the processing

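Alternatives were a pseudocount of 0.1, no filter on low values, a replicate block, 3 scalings of the libraries, leaving out 1 library at a time and a test against a 2-fold change. Against a 2-fold change, 5 members were higher and 7 lower, and over all genes 303 were higher and 907 lower. The other settings kept the counts within 1.5 times. Of 10 named genes of the surrounding lists, C1galt1 alone lost its call under another setting than the test against a 2-fold change. Without 1 library, 8 to 10 members were higher and 19 to 24 lower. With the replicate block, 9 members were higher and 23 lower, as without it, and no member named with its values changed its call. Of 32 called members, 24 kept direction and call under every setting other than the test against a 2-fold change. Another 2 kept them wherever they were tested but fell under the minimum in 1 setting (Galntl4 without passage 8 and St6galnac3 without passage 10). B3gnt2, B4galt2, B4galt7, Galnt12, Mgat4b and St3gal2 lost their call in at least 1 setting, and the cause was not tested. The log2 fold change of B4galt1, which was not called, turned to 0.0552 with scaling by median ratio and lay between -0.0892 and 0.0813 when 1 library was left out, above zero without passage 90 or 8. With 3 libraries a group, an exact two-sided permutation test of a single value, such as a sum over a family, can give no p below 0.1.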
